A study of Saccharomyces cerevisiae with 24 samples.

Results

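The genes described here encode the proteins of the cytosolic ribosome of Saccharomyces cerevisiae. They were chosen by name alone, as the probes named RPL or RPS followed by digits and an optional A or B, which gave 132 of the 6256 gene probes on the array. RPL genes encode proteins of the large subunit (76 members) and RPS genes those of the small subunit (56 members). 114 members formed 57 pairs of paralogs (A and B genes for nearly or fully identical proteins; 33 pairs of the large and 24 of the small subunit), and 18 members were single copy, so the 132 genes encode 75 kinds of ribosomal protein. Each gene had 1 probe, spotted in 2 places on every array, and all 132 members could be named through their systematic names.

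RNA was measured in 3 strains of the W303 background. SEF1-VP16 carries the gene of the zinc cluster transcription factor Sef1 fused in place to the VP16 activation domain (SEF1-VP16::FRT) and was 1 clone. In sef1 the SEF1 reading frame was replaced by a drug marker (sef1Δ::NatMX4). WT is the MATa parent, and all 3 strains share its W303 mutations in ADE2, CAN1, HIS3, LEU2, TRP1 and URA3. Overnight YPD cultures were diluted to 0.2 OD600 per ml in YPGly, in which glycerol is the carbon source and cells must respire, or in YPD, in which glucose is fermented, both supplemented with adenine and tryptophan, and were harvested after 5.5 h at 30 °C. Each of the 6 strain and medium groups had 4 biological replicates, each on an array of its own.

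A ribosomal subunit needs each of its proteins in near equal amounts, and in growing yeast the genes for these proteins are among the most transcribed by RNA polymerase II. Most of their promoters are bound by Rap1 together with Fhl1 and its coactivator Ifh1, and the TOR and protein kinase A pathways tie their output to nutrients. Most paralog pairs date from an ancient duplication of the whole genome, and in several pairs the protein feeds back on the splicing or decay of its own transcripts.

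All 3168 values of the members (132 genes on 24 arrays) came from probes well above background, and none was saturated. The dimmest member was RPL7B, with group mean intensities of 296 to 763, and the lowest single member value was 168. Over the arrays, 90.9 to 97.5% of all gene probes were well above background. The SEF1 probe was well above background on all 16 WT and SEF1-VP16 arrays and on 0 of the 8 sef1 arrays. Against WT its signal in sef1 was at least 32.9-fold lower in YPGly (limma, adjusted p = 9.4e-08) and at least 8.14-fold lower in YPD (adjusted p = 4.2e-06). The 24 arrays lay on 3 slides, each with 2 groups: the YPD arrays of sef1 and WT on the first, the YPGly arrays of WT with the YPD arrays of SEF1-VP16 on the second, and the YPGly arrays of SEF1-VP16 and sef1 on the third. Thus every medium comparison within a strain crosses slides, as does every comparison of strains in a medium except that of sef1 with WT in YPD and that of SEF1-VP16 with sef1 in YPGly.

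In each strain the ribosomal protein transcripts lay lower in YPGly than in YPD. Levels are given as log2 signal relative to the 75th percentile of the gene probes on the same array, so a difference is relative to the other transcripts of the sample, and a smaller share of cells that express a gene cannot be told apart from less of its RNA per cell. In SEF1-VP16, the median member level was 1.67, 2.26, 2.16 and 2.07 on the 4 YPGly arrays, against 2.55, 2.88, 3.04 and 3.00 on the 4 YPD arrays. In sef1 it was 2.04, 1.79, 2.26 and 2.31 in YPGly, against 2.96, 2.99, 3.05 and 2.83 in YPD. In WT it was 1.88, 2.27, 1.95 and 2.24 in YPGly, against 2.65, 2.82, 2.90 and 2.74 in YPD. No YPGly array reached the level of any YPD array, whereas within a medium the ranges of the 3 strains overlapped.

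**Figure D1:**
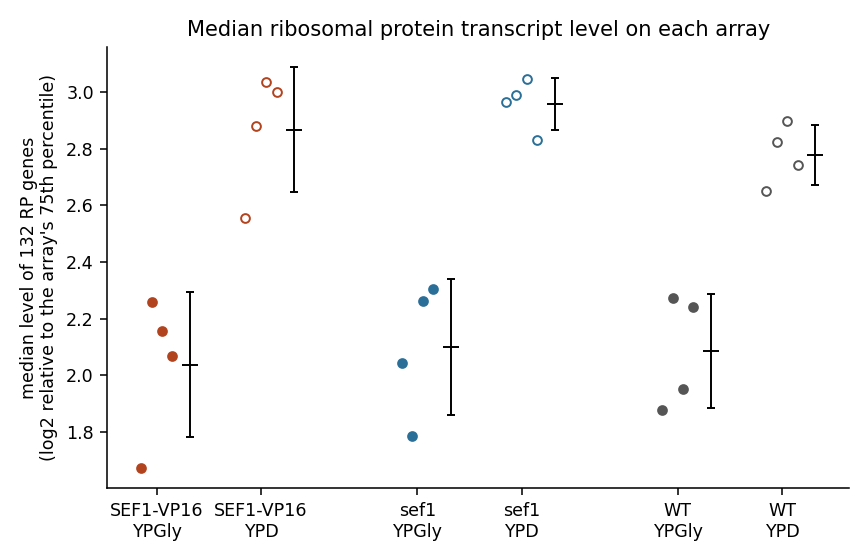
Median log2 level of the 132 ribosomal protein (RP) genes on each array, relative to the array's 75th percentile, by strain and medium. Points are arrays (filled, YPGly; open, YPD), and the bar beside each group is its mean ± SD (n = 4). The 12 YPGly arrays lie between 1.67 and 2.31, below the 12 YPD arrays at 2.55 to 3.05.

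Counted gene by gene, with limma over the 8 arrays of a strain, adjustment over the 5641 probes tested and a change of at least 1.5-fold, 95 members (72.0%) fell and 0 rose in SEF1-VP16 (21.7% of all tested probes were called lower and 19.6% higher; 1 member was higher at an unadjusted p under 0.05, and 0 by the methods' t-test, an unpaired test with the same adjustment). In sef1, 101 members (76.5%) fell and 1 rose, where 19.4% of all probes were called lower and 19.4% higher. In WT, 89 (67.4%) fell and 1 rose, where 18.1% of all probes were called lower and 21.1% higher. The median difference of the members, YPGly minus YPD on the log2 scale, was -0.83 in SEF1-VP16, -0.80 in sef1 and -0.71 in WT, which corresponds to levels 1.78-, 1.74- and 1.63-fold lower. Over all probes tested the medians were -0.05, -0.02 and 0.01.

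Every YPGly array lay below every YPD array for 100 members in SEF1-VP16, 107 in sef1 and 105 in WT, where the same held for 39.7, 38 and 32.2% of all probes. 79 members fell in all 3 strains, 16 in exactly 2, 16 in exactly 1, and 21 in none. Singly, 21.7, 19.4 and 18.1% of all probes fell in SEF1-VP16, sef1 and WT, and the share falling in all 3 was not counted. These 3 comparisons share no arrays. Across the 132 members the differences had a Pearson r of 0.94 between sef1 and WT, 0.83 between SEF1-VP16 and sef1, and 0.75 between SEF1-VP16 and WT, given as a description, since genes are not independent replicates and all share the arrays and slides of their groups. The only medium difference found within a slide, WT in YPGly against SEF1-VP16 in YPD, which also differ in strain, gave 100 members lower and 0 higher (limma; 20.8% of all probes lower and 20.4% higher; 1 member higher at an unadjusted p under 0.05), with a median of -0.79. A fit with slide as a term has to assume that strains differ alike in both media. It gave a single medium difference for the 3 strains, in which 83 members fell, and the share of all probes was not counted.

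**Figure D2:**
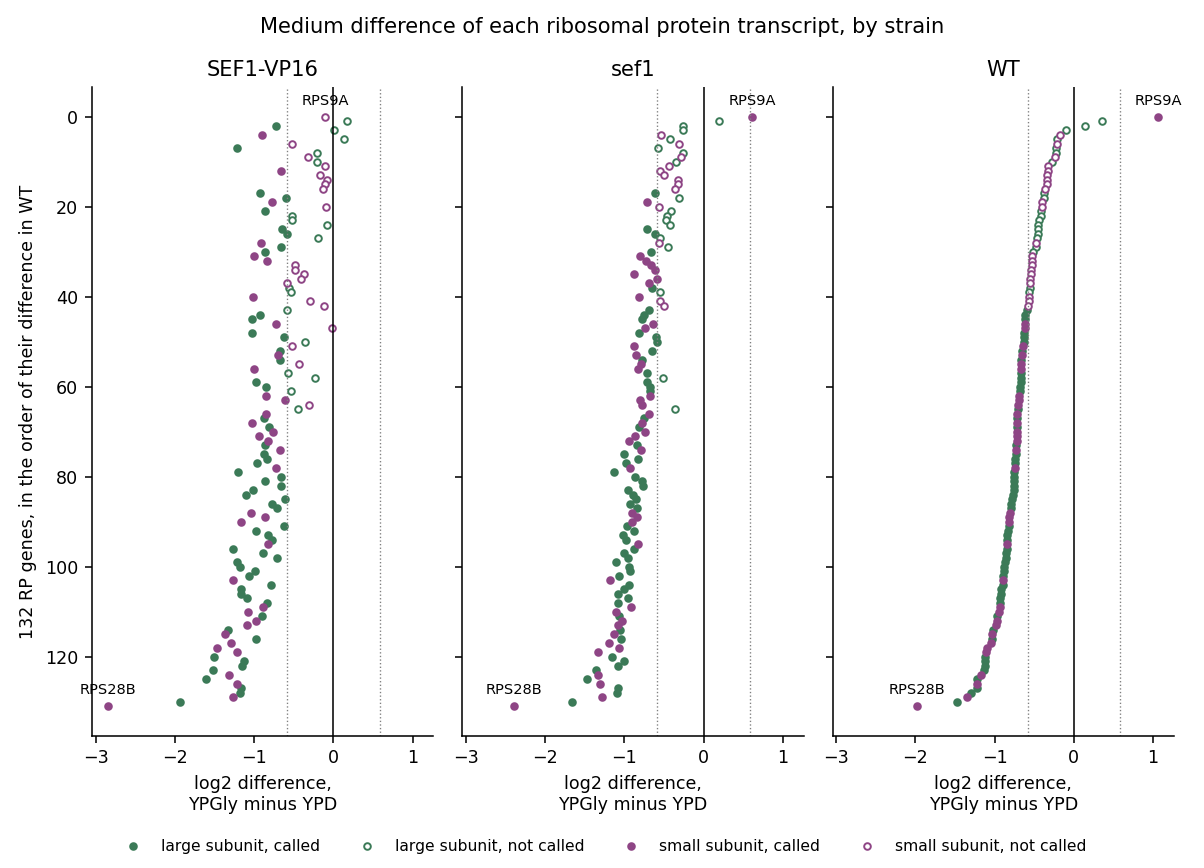
Difference of each of the 132 RP genes between YPGly and YPD (x axis, log2 units) in SEF1-VP16, sef1 and WT, with genes down the page in the order of their difference in WT. Green points are large and purple points small subunit genes, filled where they passed the test and the 1.5-fold minimum (dotted lines); 95, 101 and 89 members fell in the 3 strains, RPS9A lies far right in sef1 and WT, and RPS28B lies far left in all 3.

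Large and small subunit genes had similar median differences. The median was -0.85 for the 76 large subunit genes and -0.80 for the 56 small subunit genes in SEF1-VP16, -0.82 and -0.79 in sef1, and -0.74 and -0.67 in WT. Of the members that fell in all 3 strains, 50 were of the large and 29 of the small subunit. The median of the single-copy genes lay nearer to 0 than that of genes in pairs. It was -0.46 against -0.86 in SEF1-VP16, -0.60 against -0.83 in sef1 and -0.59 against -0.72 in WT. In the same order of strains, 5, 10 and 9 of the 18 single-copy genes fell, where 21.7, 19.4 and 18.1% of all probes fell. The 5 in SEF1-VP16 are 27.8%, near the share of all probes there. RPL25, RPL30, RPL32, RPL39 and RPS13 were the 5 single-copy genes that fell in all 3 strains.

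By the site at which the proteins act, all 14 genes of the peptide exit tunnel had negative differences in every strain. Of these, 12 fell in SEF1-VP16, 12 in sef1 and 13 in WT, where 21.7, 19.4 and 18.1% of all probes fell. RPL25, whose protein sits at the tunnel exit where nascent chains leave, fell by 0.66 ± 0.15, 0.87 ± 0.13 and 0.75 ± 0.14 (log2 ± SE, limma, adjusted p = 0.0019, 8.4e-05 and 5.8e-04) in SEF1-VP16, sef1 and WT. With slide as a term its single medium difference was -0.54 (limma, adjusted p = 0.083) and was not called. RPL28, another single-copy gene of the large subunit, was at -0.53, -0.55 and -0.56 and was called in none. For the 6 genes of the peptidyl transferase centre and tRNA sites, 4, 4 and 5 fell in the 3 strains. Within that group RPL2A, which helps to hold the 2 subunits together beside the centre, fell by 1.15, 1.09 and 1.13, whereas RPL10, whose protein joins late in assembly beside the P site, differed by -0.19, -0.55 and -0.47 and was called in none. RPL3, which lines the centre and is needed early in assembly, fell by 0.70 in WT alone (adjusted p = 3.7e-04), with -0.44 in SEF1-VP16 and -0.36 in sef1. The difference between strains was not called for RPL3.

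RPL5 and the RPL11 pair, whose proteins bring the 5S RNA into the large subunit, fell in sef1 and WT, and RPL11A and RPL11B also fell in SEF1-VP16 (-1.06 and -1.03), where RPL5 was at -0.36 (adjusted p = 0.054). The RPL5 call was lost without any 1 of 4 arrays in sef1 (-0.45 to -0.54) and of 3 in WT (-0.54 to -0.57), and in sef1 also by the methods' t-test and after quantile normalization (-0.43). The RPL12 pair, at the base of the stalk to which elongation factors bind, fell in SEF1-VP16 (-0.87 and -0.65 for A and B) and in sef1 (-0.75 and -0.71), and in WT RPL12A fell (-0.71) while RPL12B was at -0.46. For neither RPL5 nor RPL12B was the difference between strains called. Of the 3 genes that encode a fusion of ubiquitin with a ribosomal protein, RPL40A and RPL40B fell in all 3 strains (-0.67 and -1.09 in SEF1-VP16, -0.77 and -0.96 in sef1, -0.76 and -0.93 in WT). RPS31, the third, was called in none (-0.17, -0.51 and -0.34).

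Of the 8 genes for the mRNA entry and decoding side of the small subunit, 2 fell in SEF1-VP16, 4 in sef1 and 0 in WT (limma; 6 were lower at an unadjusted p under 0.05 in WT), and their medians were -0.27, -0.51 and -0.45. RPS3, at the mRNA entry, was at -0.10, -0.43 and -0.32, with adjusted p between 0.068 and 0.56. RPS2 was at -0.13, -0.36 and -0.37. Among the other genes that fell in no strain, named here after their values were seen, were both RPL15 genes and both RPL41 genes. RPL15B had positive differences in all 3 strains, of 0.17, 0.20 and 0.36 (adjusted p = 0.013, 0.0049 and 0.0010), under the 1.5-fold minimum.

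RPS28B (YLR264W, chromosome XII) had the largest decrease of all members in each strain. Its protein lies near the mRNA exit of the small subunit, and its transcript carries a 3′ element through which the protein hastens the decay of that transcript. In SEF1-VP16 its level was -3.09, -3.09, -2.89 and -3.08 in YPGly, against -0.36, -0.14, -0.10 and -0.18 in YPD, a fall of 2.85 ± 0.07 (adjusted p = 1.2e-10). In sef1 it was -2.80, -2.85, -2.64 and -2.52 in YPGly, against -0.46, -0.30, -0.17 and -0.28 in YPD, a fall of 2.40 ± 0.08 (adjusted p = 6.2e-10). In WT it was -3.08, -2.64, -3.04 and -2.89 in YPGly, against -0.72, -0.85, -0.45 and -1.69 in YPD, a fall of 1.98 ± 0.23 (adjusted p = 2.0e-05). The 2 media did not overlap in any strain, and replicate 4 of WT in YPD was the lowest of the 12 YPD arrays.

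The other large decreases were in RPL23A, RPL6B, RPS26B, RPL36A, RPL20A, RPL9A, RPS22A and RPL8B. RPL23A, whose protein faces the small subunit and forms part of the site of the anti-association factor eIF6, stood at -1.20, -0.45, -0.60 and -0.49 in YPGly, against 1.14, 1.19, 1.33 and 1.36 in YPD in SEF1-VP16, and fell by 1.94 ± 0.15 in SEF1-VP16, 1.66 ± 0.09 in sef1 and 1.47 ± 0.18 in WT. RPL6B fell by 1.61, 1.47 and 1.22, and RPL36A by 1.51, 1.36 and 1.14, in the same order of strains. For both genes the decrease in SEF1-VP16 was not called different from that in WT or sef1.

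RPS9A (YPL081W, chromosome XVI) was the 1 member called higher in YPGly, in sef1 and in WT. Its protein sits at the mRNA entry and is needed for accurate decoding, and the RPS9 genes are known to control the splicing of their own transcripts. In sef1 the RPS9A level was 0.14, -0.01, 0.15 and 0.18 in YPGly, against -0.35, -0.55, -0.50 and -0.60 in YPD, a rise of 0.62 ± 0.07 (adjusted p = 6.6e-06), which came to 0.58 without replicate 4 of sef1 in YPD and was under the 1.5-fold minimum there and on the scale of the array median. In WT it was -0.14, 0.24, -0.16 and 0.15 in YPGly, against -1.26, -0.80, -1.09 and -1.02 in YPD, a rise of 1.07 ± 0.12 (adjusted p = 1.8e-05). In SEF1-VP16 it was -0.34, 0.17, 0.11 and 0.06 in YPGly, against -0.08, 0.16, 0.04 and 0.27 in YPD, and the media overlapped (-0.10 ± 0.11, adjusted p = 0.44). With slide as a term the single medium difference of RPS9A was 0.35 (limma, adjusted p = 0.12) and was not called. Within 1 slide, WT in YPGly against SEF1-VP16 in YPD, which also differ in strain, gave -0.07, not called. Medium and slide cannot be told apart in the rises in sef1 and WT.

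The A and B genes of a pair were then compared through the change of their log2 ratio on each array, in which the scale of the array cancels. Probes differ in brightness, so the level of an A gene was not set against that of its B gene, and how far a probe also binds its paralog's transcript was not tested, since probe sequences were not used here. A ratio change was called where the 4 arrays of a medium lay wholly apart from the 4 of the other and the change was at least 1.5-fold. An exact two-sided permutation test of 4 against 4 arrays cannot go below p = 0.0286, the value that every called pair has, and p was not adjusted over the 57 pairs. 12 of 57 pairs (21.1%) were called in SEF1-VP16, 10 (17.5%) in sef1 and 12 (21.1%) in WT. By the same rule 58.4, 56.4 and 55.0% of all pairs of tested probes were called, and 30.0, 16.6 and 16.3% of pairs of ribosomal protein genes that are not paralogs. The share among paralogs was thus close to that among unrelated ribosomal protein pairs in sef1 and WT and below it in SEF1-VP16.

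16 pairs were called in at least 1 strain, 7 of them in all 3: RPL6, RPL9, RPL23, RPL36, RPS22, RPS26 and RPS28. The shares of non-paralog ribosomal protein pairs and of all probe pairs called in at least 1 or in all 3 strains were not counted. In RPL9, whose protein lies near the binding site of the elongation factors, the A gene alone fell. RPL9A was at 1.55, 2.69, 2.65 and 2.40 in YPGly, against 3.02, 3.57, 3.76 and 3.69 in YPD in SEF1-VP16, a fall of 1.18 ± 0.25 (limma, adjusted p = 0.0012). RPL9B was at 2.55, 3.01, 2.90 and 2.82 in YPGly, against 2.71, 2.99, 3.24 and 3.16 in YPD, where the media overlapped (-0.21 ± 0.13, adjusted p = 0.16). The ratio of A to B changed by -0.98 in SEF1-VP16, -0.83 in sef1 and -1.07 in WT on the log2 scale.

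In RPS26, whose protein contacts the mRNA at the exit channel, the B gene moved instead. RPS26B was at 1.93, 2.81, 2.66 and 2.59 in YPGly, against 3.35, 3.83, 3.98 and 3.90 in YPD in SEF1-VP16, a fall of 1.27 ± 0.19 (limma, adjusted p = 1.2e-04). RPS26A was at 4.45, 4.53, 4.42 and 4.45 in YPGly, against 4.12, 4.55, 4.87 and 4.68 in YPD, and the media overlapped (-0.09 ± 0.13, adjusted p = 0.54). The ratio changed by 1.17, 0.72 and 0.94 in SEF1-VP16, sef1 and WT.

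RPS22 followed the same course as RPL9. RPS22A fell by 1.21, 1.31 and 1.23, whereas RPS22B was at -0.52, -0.31 and -0.22 and called in no strain. In RPL6, RPL23, RPL36 and RPS28 both genes of the pair fell in at least 2 strains and 1 had the larger difference in each. RPS28A fell by 1.08 ± 0.10, 1.11 ± 0.10 and 0.95 ± 0.17 in SEF1-VP16, sef1 and WT, against the larger falls of RPS28B above, and the ratio changed by 1.77, 1.29 and 1.03. RPS9 was called in sef1 and WT with changes of 1.28 and 1.60, and was at 0.38 in SEF1-VP16. RPS9B, the other gene of that pair, fell in sef1 (-0.66 ± 0.18, adjusted p = 0.0056) and was at -0.48 in SEF1-VP16 and -0.54 in WT. For RPS9B the difference between strains was not called.

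**Figure D3:**
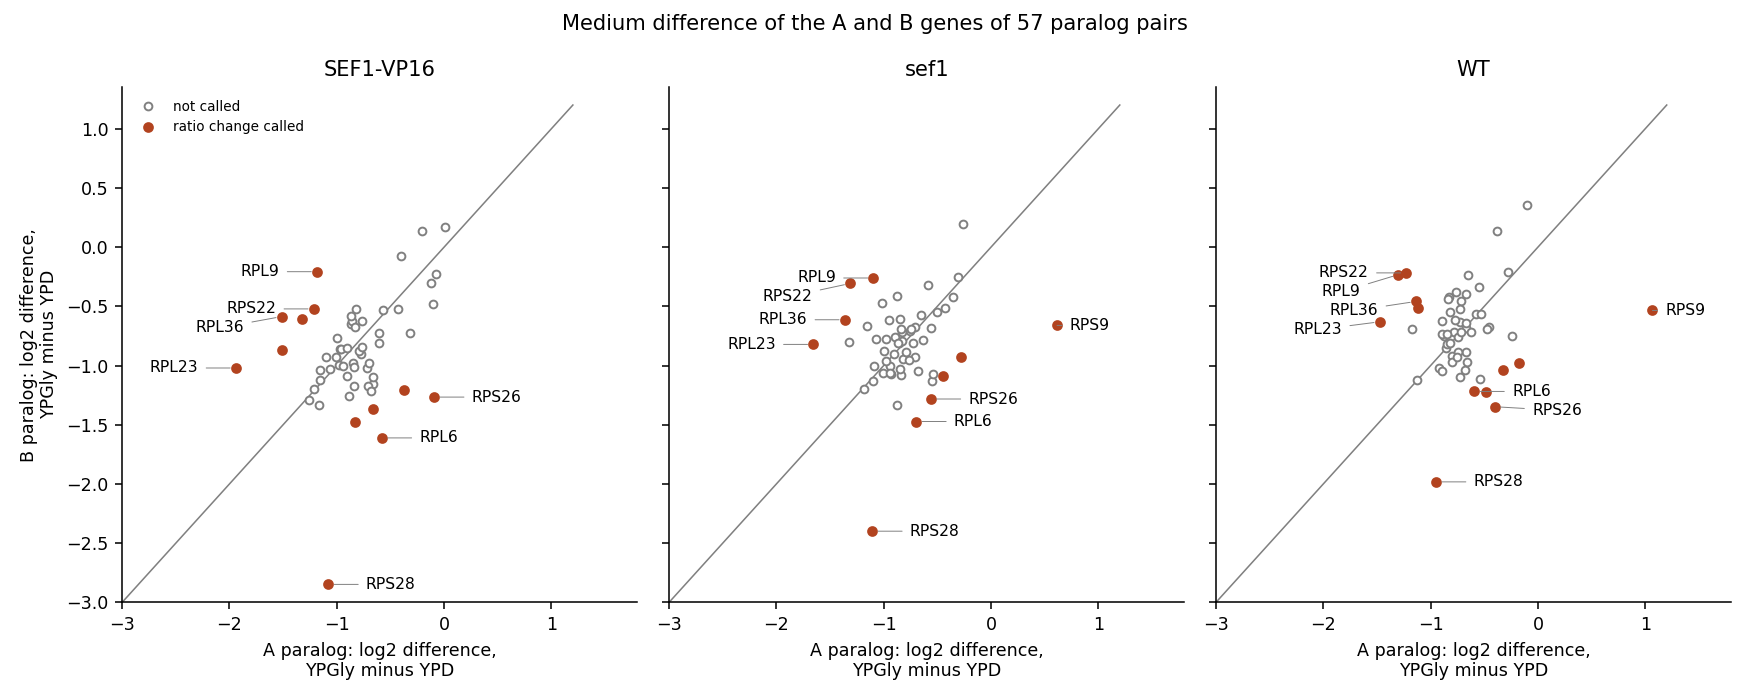
Difference between YPGly and YPD (log2 units) of the A gene (x axis) and the B gene (y axis) of the 57 paralog pairs in SEF1-VP16, sef1 and WT; on the diagonal both genes of a pair differ by the same amount. Filled points are the 12, 10 and 12 pairs whose ratio change was called, with names for RPS9 and the 7 pairs called in all 3 strains; RPS28 lies lowest in each strain and RPS9 lies far right in sef1 and WT.

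The change of the ratio was under 0.2 on the log2 scale in 27 of 57 pairs in SEF1-VP16, 31 in sef1 and 25 in WT. The share of non-paralog pairs under 0.2 was not counted. In the same order of strains, the median size of the change was 0.22, 0.16 and 0.26 in paralog pairs. In non-paralog ribosomal protein pairs it was 0.37, 0.28 and 0.27, so the 2 kinds of pair were close in WT. In 27 pairs both genes fell in all 3 strains, a count without a share of other pairs beside it. Besides RPS9, RPL8 and RPL20 were among the pairs called in 2 strains, and RPS0, RPS7, RPS25, RPS27 and RPS29 were called in 1. RPL8B fell in all 3 strains (by 1.16, 1.09 and 1.23), and RPL8A in SEF1-VP16 (by 0.67, with -0.45 in sef1 and -0.48 in WT). RPS25B, for a small subunit protein used in some forms of internal initiation, fell by 1.21, 1.33 and 1.11, and RPS25A in sef1 (fell by 0.88, with -0.38 in SEF1-VP16 and -0.54 in WT). RPL22A fell by 0.68, 0.65 and 0.65, and RPL22B in SEF1-VP16 (fell by 1.22, with -0.57 in sef1 and -0.23 in WT). RPL7A and RPL7B both fell in SEF1-VP16, by 0.60 and 0.73, and were at -0.31 and -0.26 in sef1 and at -0.38 and 0.14 in WT. The difference between strains was not called for RPL7A, RPL8A or RPS25A. The RPL7A call was lost without replicate 1 in YPGly (-0.47) or replicate 3 in YPD (-0.54) and against the array median (-0.57), and the RPL7B call with normexp background correction (-0.49). Of the pairs known for control of their own transcripts, RPS14A fell by 0.94, 0.87 and 0.72 and RPS14B, whose splicing the Rps14 protein blocks, by 1.00 and 0.81 in SEF1-VP16 and sef1, with -0.52 in WT. For RPS14B the difference between strains was not called. RPL30, which likewise binds its own transcript, fell by 0.71 ± 0.14, 0.95 ± 0.12 and 0.86 ± 0.12. Without replicate 1 of SEF1-VP16 in YPGly, the SEF1-VP16 values of RPL8A (-0.53), RPL12B (-0.55), RPL22A (-0.58), RPL25 (-0.52), RPL30 (-0.58), RPL36B (-0.55) and RPL40A (-0.57) were under the 1.5-fold minimum. Without replicate 2 of sef1 in YPGly, so were the sef1 values of RPL6A (-0.57), RPL12B (-0.58), RPL22A (-0.54), RPL36B (-0.57) and RPS9B (-0.49), and without replicate 1 of WT in YPGly the WT values of RPL22A (-0.57) and RPL23B (-0.51). After quantile normalization the sef1 values of RPL12B (-0.57), RPL22A (-0.52), RPL36B (-0.54) and RPS9B (-0.56) were also under it. With slide as a term the single medium difference was not called for RPL5 (-0.41), RPL6A (-0.48), RPL7B (-0.33), RPL12B (-0.40) or RPL36B (-0.43). Nor was it for RPS9B (-0.35), RPS25A (-0.035) or RPS29B (-0.50).

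Between strains in the same medium, few members differed. For SEF1-VP16 against WT in YPD, 5 members were higher and 0 lower (5.66% of all probes were called higher and 3.49% lower; 0 members lower at an unadjusted p under 0.05 and 0 by the methods' t-test): RPS9A, RPL22B, RPL7B, RPS28B and RPS27A. The 5 members are 3.79% of the 132, under the share of all probes called higher. With the array median as the scale, the split of all probes was 228 higher and 284 lower in place of 319 and 197, and 4 members were called higher. All 5 genes belong to pairs, as do 114 of the 132 members, and the partner of each was not called: RPS9B differed by 0.07, RPL22A by -0.01, RPL7A by 0.26, RPS28A by 0.02 and RPS27B by 0.02. The called gene had the dimmer probe in each of these pairs. Mean intensities in WT in YPD were 6235 against 126754 (RPS9A), 3115 against 150430 (RPL22B) and 368 against 16629 (RPL7B). For RPS28B they were 6719 against 95105, and for RPS27A 7202 against 132277. Whether probe brightness bears on these differences was not tested. The YPD arrays of SEF1-VP16 lay on another slide than those of sef1 and WT, so strain and slide cannot be told apart in these differences.

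RPS9A stood at -0.08, 0.16, 0.04 and 0.27 in SEF1-VP16 in YPD, against -1.26, -0.80, -1.09 and -1.02 in WT in YPD, higher by 1.14 ± 0.10 (limma, adjusted p = 3.5e-05). RPL22B (YFL034C-A, chromosome VI), whose splicing is blocked by the Rpl22 protein, stood at -1.25, -1.15, -1.12 and -1.02, against -2.17, -1.89, -1.95 and -2.09 in WT, higher by 0.89 ± 0.08 (adjusted p = 2.6e-05). RPL7B (YPL198W, chromosome XVI), for a protein needed in early assembly of the large subunit, stood at -4.42, -4.36, -4.07 and -4.06, against -5.25, -5.00, -4.81 and -5.32 in WT, higher by 0.87 ± 0.13 (adjusted p = 4.6e-04). For these 3 genes every SEF1-VP16 array lay above every WT array.

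RPS27A (YKL156W, chromosome XI), for a zinc-binding protein of the small subunit, stood at -0.33, -0.22, -0.19 and -0.03 in SEF1-VP16, against -1.04, -0.72, -0.56 and -0.91 in WT, higher by 0.61 ± 0.11 (limma, adjusted p = 0.0012). RPS28B, with the YPD values given above, was higher by 0.74 ± 0.22 (adjusted p = 0.020). Both groups were apart in both genes. The RPS28B difference was 0.48 without replicate 4 of WT in YPD, under the 1.5-fold minimum, and was not called without replicate 3 of SEF1-VP16 (0.71) or by the methods' t-test. That of RPS27A was 0.53 to 0.58 without replicate 4 of SEF1-VP16 or replicate 1 or 4 of WT.

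For sef1 against WT in YPD, no member was called (limma; 37 were higher at an unadjusted p under 0.05, 7 passed the adjusted p, and 0 were called by the methods' t-test, where 0.567% of all probes were called higher and 0.106% lower). The same 5 genes were at 0.54 ± 0.10 (RPS9A), 0.41 ± 0.09 (RPL22B), 0.52 ± 0.12 (RPL7B), 0.63 ± 0.22 (RPS28B) and 0.46 ± 0.11 (RPS27A). These values share the 4 WT arrays with the SEF1-VP16 comparison and with the medium comparison in WT. RPS9A was the only member called for SEF1-VP16 against sef1 in YPD, higher by 0.60 ± 0.08 (adjusted p = 2.0e-04; 1.58% of all probes called higher and 1.56% lower), which was under the 1.5-fold minimum (0.54 to 0.58) without replicate 2 or 4 of either group. The pair ratios called in YPD were RPS9 (1.07), RPL22 (-0.90), RPS28 (-0.72), RPL7 (-0.61) and RPS27 (0.59) for SEF1-VP16 against WT, 8.77% of the pairs where 6.78% of non-paralog ribosomal protein pairs and 19.9% of all probe pairs were called. RPS9 (0.72) was the 1 pair called for SEF1-VP16 against sef1 (1.89 and 9.43%), and no pair was called for sef1 against WT in YPD (0.0629 and 1.95%; 5 pairs were at the smallest exact p).

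In YPGly, no member was called between any 2 strains (limma). For SEF1-VP16 against WT, 0 of 132 had an unadjusted p under 0.05 (0.904% of all probes were called higher and 0.195% lower), and the differences ran between -0.23 and 0.34. For sef1 against WT, 0 had an unadjusted p under 0.05 (0.408% and 0.39%). For SEF1-VP16 against sef1, which lie on 1 slide, 1 was higher and 4 lower at an unadjusted p under 0.05 (1.97% and 1.12%). The count by the methods' t-test was 0 in each. No pair ratio was called in YPGly, with 0 pairs at the smallest exact p in the first of these comparisons, 2 in the next and 4 in the last, where 2.68, 2.31 and 7.73% of all probe pairs and 0, 0 and 0.0349% of non-paralog ribosomal protein pairs were called. RPS9A was at -0.34 to 0.17 in SEF1-VP16, -0.01 to 0.18 in sef1 and -0.16 to 0.24 in WT, and RPL22B at -2.55 to -2.10, -2.26 to -2.11 and -2.49 to -1.96, ranges that overlapped. RPS28B in YPGly lay lower on every SEF1-VP16 array than on any sef1 array, by 0.34 ± 0.08 (limma, adjusted p = 0.018), under the 1.5-fold minimum.

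**Figure D4:**
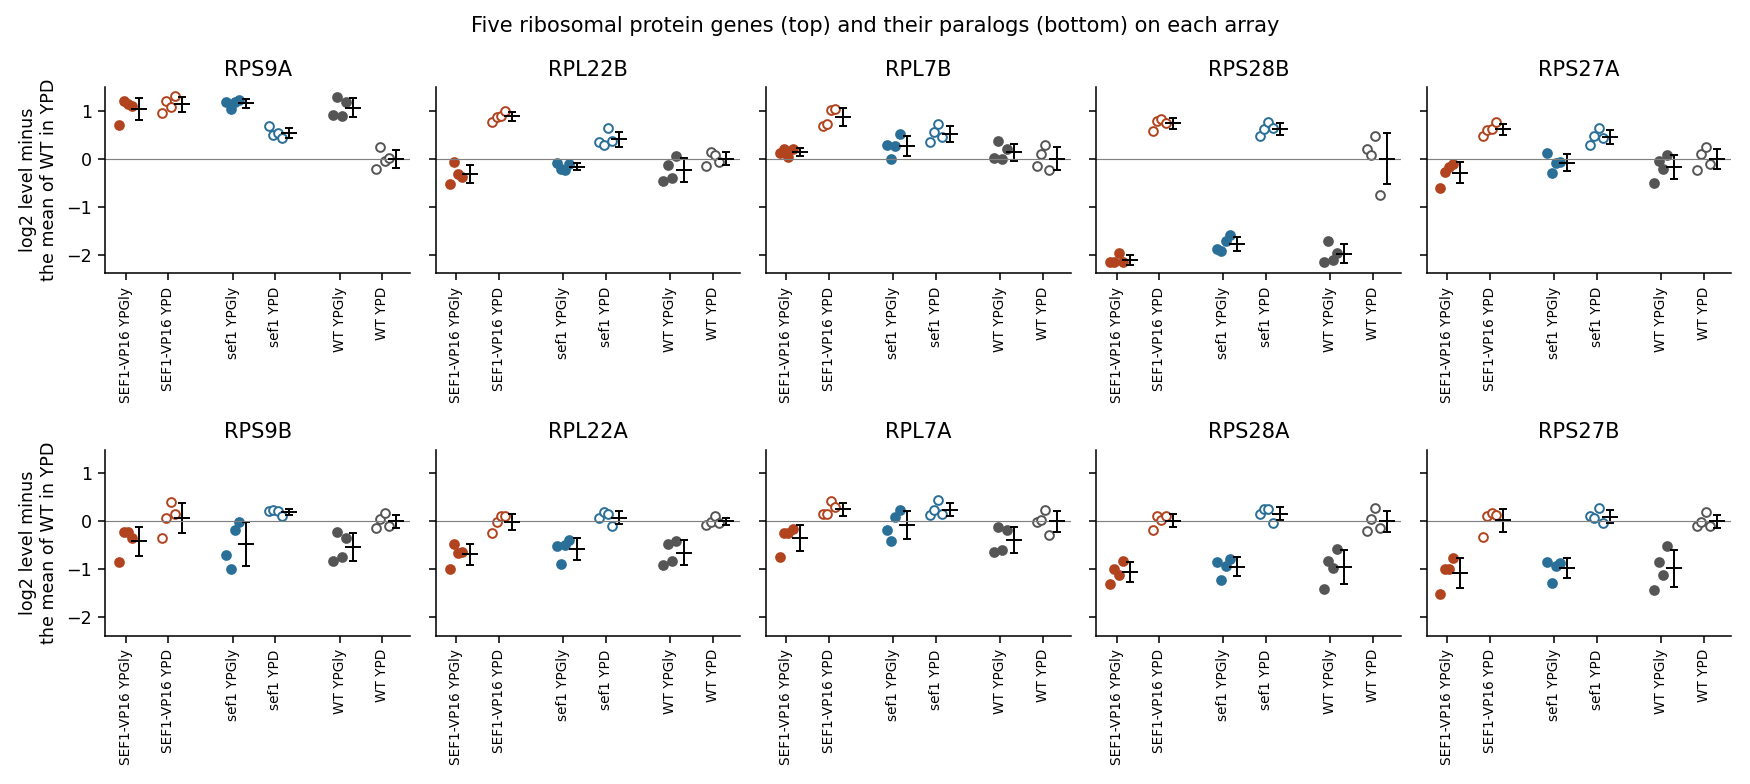
Levels of RPS9A, RPL22B, RPL7B, RPS28B and RPS27A (top row) and of their paralogs (bottom row) on each array, as log2 difference from the mean of WT in YPD, by strain and medium (filled, YPGly; open, YPD; bars, mean ± SD, n = 4). In YPD the 5 genes lie 0.61 to 1.14 higher in SEF1-VP16 than in WT, with sef1 at 0.41 to 0.63, whereas in YPGly the ranges of SEF1-VP16 and WT overlap.

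The difference between strains in their medium effect was tested in a fit over the 16 arrays of 2 strains. That fit includes the YPD arrays compared above, so its results are not independent of the YPD differences between strains. The same 5 genes had a lower YPGly against YPD difference in SEF1-VP16 than in WT: by 1.17 ± 0.18 for RPS9A (limma, adjusted p = 2.0e-04), 0.98 ± 0.16 for RPL22B (3.5e-04), 0.87 ± 0.17 for RPL7B (0.0011), 0.87 ± 0.26 for RPS28B (0.019) and 0.73 ± 0.19 for RPS27A (0.0076). They are 3.79% of the members, where 6.72% of all probes were called lower, and 0 members were called higher (3.86% of all probes; 1 member higher at an unadjusted p under 0.05). Against sef1, RPS9A and RPL22B were lower, by 0.71 ± 0.14 and 0.65 ± 0.13 (4.36% of all probes lower and 4.25% higher). For sef1 against WT no member was called (limma; 5 were lower at an unadjusted p under 0.05; 0.496% of all probes were called lower and 0.39% higher). Strain, medium and slide cannot be told apart in these values. The RPS28B value against WT was -0.66 with normexp background correction and did not pass (adjusted p = 0.064). The RPL22B value against sef1 was under the 1.5-fold minimum with normexp (-0.58), against the array median (-0.54), after quantile normalization (-0.58) and without replicate 1 of SEF1-VP16 in YPGly (-0.58).

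Genes of neighbouring function were followed by lists. Of the stalk proteins RPP0, RPP1A, RPP1B, RPP2A and RPP2B and the small subunit scaffold ASC1, 3 of 6 fell in SEF1-VP16, 4 in sef1 and 4 in WT (66.7% in sef1 and WT, where 19.4 and 18.1% of all probes fell). RPP1B fell by 0.94, 0.99 and 0.76, whereas RPP0, which anchors the stalk, was at -0.27, -0.41 and -0.35 and called in none. Of 16 genes for chaperones and assembly partners of ribosomal proteins or for factors that meet nascent chains, 10 fell in SEF1-VP16, 3 in sef1 and 4 in WT. These are 62.5, 18.8 and 25.0%, where 21.7, 19.4 and 18.1% of all probes fell, so the share in sef1 was near that of all probes. The number that rose was 0 in each strain (limma; 1, 2 and 1 were higher at an unadjusted p under 0.05), where 19.6, 19.4 and 21.1% of all probes rose. TSR2, which escorts Rps26, fell by 1.41 ± 0.08, 1.01 ± 0.05 and 0.61 ± 0.10, and BTT1, a subunit of the nascent chain complex, by 0.86, 0.89 and 0.81.

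Of 15 transcripts of regulators of ribosomal protein genes, 5 rose and 3 fell in SEF1-VP16, 8 rose and 2 fell in sef1, and 8 rose and 2 fell in WT. The shares that rose were 33.3, 53.3 and 53.3%, where 19.6, 19.4 and 21.1% of all probes rose. The shares that fell were 20.0, 13.3 and 13.3%, under the 21.7, 19.4 and 18.1% of all probes that fell. CRF1, a corepressor that binds Fhl1 in place of Ifh1, rose by 4.89 ± 0.09, 4.15 ± 0.10 and 4.53 ± 0.12 on the log2 scale in SEF1-VP16, sef1 and WT. TOD6, a repressor of ribosome biogenesis genes, rose by 1.37, 1.86 and 1.71, and the kinase gene TOR2 by 1.59, 1.30 and 1.23. SFP1 and HMO1, an activator and a high mobility group protein of these promoters, fell in all 3 strains (SFP1 by 0.85, 0.64 and 0.69; HMO1 by 0.86, 0.82 and 0.59).

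**Figure D5:**
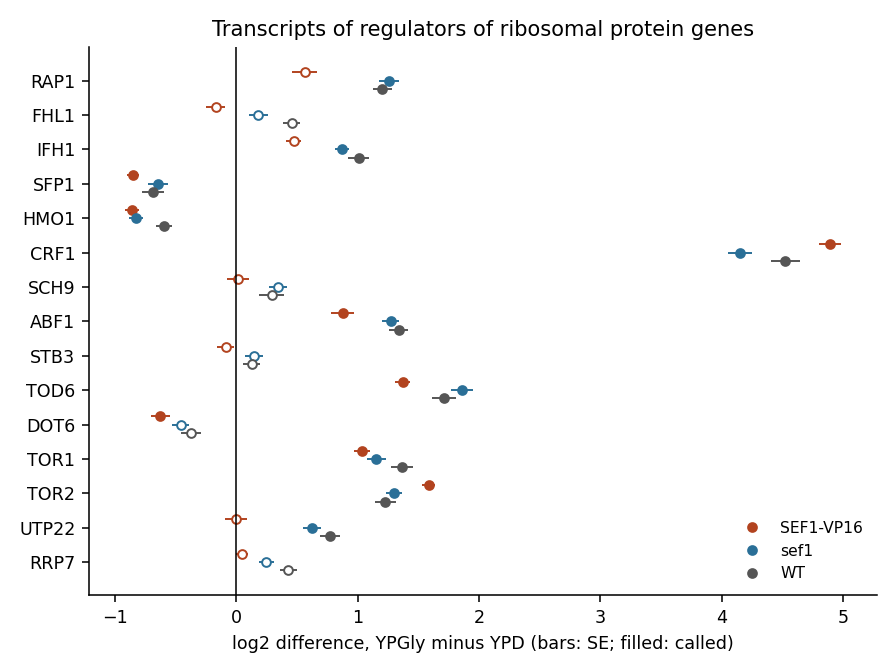
Difference between YPGly and YPD (x axis, log2 units; bars, SE) of the transcripts of 15 regulators of ribosomal protein genes in SEF1-VP16, sef1 and WT. Filled points passed the test and the 1.5-fold minimum; CRF1 lies between 4.15 and 4.89, and SFP1 and HMO1 lie below 0 in every strain.

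Of 22 translation factors, 9 fell and 1 rose in SEF1-VP16, and 6 fell and 1 rose in each of sef1 and WT. The shares that fell were 40.9, 27.3 and 27.3%, where 21.7, 19.4 and 18.1% of all probes fell. The share that rose was 4.55% in each strain, where 19.6, 19.4 and 21.1% of all probes rose. The 1 that rose was HEF3, the second gene for elongation factor 3, by 3.60 ± 0.15, 3.19 ± 0.06 and 2.97 ± 0.22. ANB1, the oxygen-repressed gene for the factor eIF5A, fell by 2.42, 2.56 and 2.27. The genes for elongation factor 1A, TEF1 and TEF2, were at -0.22 to 0.33 over the 3 strains and were not called. As a check of the media, all 6 glucose-repressed genes examined rose in YPGly in each strain, and the glucose-induced transporters HXT1 and HXT3 fell.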

How the data were processed

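Total RNA of 24 yeast cultures was copied into oligo-dT primed cDNA, labelled with 1 dye and hybridised to Agilent yeast arrays of 1 colour. The deposited scanner tables hold, per the file headers, the background-subtracted intensity of each spot made by Agilent Feature Extraction 10.5.1.1, the median spot intensity and the median background intensity. A table of log2 values that the authors had scaled near each array's 75th percentile served as an alternative. The design names the genome build sacCer1.

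Here, spots marked as outliers were left out, both spots of a probe were averaged on the log2 scale, and the 75th percentile of the gene probes (5320 to 16182 intensity units over the arrays) was subtracted. The number of arrays limits the precision. A probe was tested if its mean intensity reached 200 in at least 1 group (5641 of 6256 probes, 90.2%, with all 132 members). limma 3.58.1 in R 4.3.3 was fitted over the 8 arrays of a comparison (16 for differences between strains in the medium effect). Genes were called at an adjusted p under 0.05 (Benjamini-Hochberg over all tested probes) and at least 1.5-fold. Names came from a RefSeq gene table through systematic names, which matched 5756 probes. Beyond 24 genes listed by name, genes were named as the 5 largest called changes in each direction, the 8 largest called ratio changes between media (3 between strains), and up to 3 called genes of each list; further members named within a group were chosen after their values were seen. The members, lists and tests were chosen with earlier results of these data known. The scripts were tested on simulated data.

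Alternatives covered the background correction, scale, deposited table, intensity minimum, the methods' t-test, slide, replicate number, fold minimum and left-out arrays.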

Additional observations from a re-analysis of the deposited data

Results flagged for a closer look

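Of 156 groups of 4 arrays examined for an array far from the other 3 (the members' median, 18 genes and 7 pair ratios in 6 groups), 7 were marked, where chance marks about 1 in 20. In SEF1-VP16 in YPGly, replicate 1 was low for RPL7A (-0.34, others 0.17 to 0.25), RPS12 (4.00, others 4.34 to 4.35) and RPL30 (2.63, others 3.12 to 3.19), and replicate 3 was high for RPS28B (-2.89, others -3.09 to -3.08). In SEF1-VP16 in YPD, replicate 1 was low for RPS27B (3.06, others 3.50 to 3.57). In WT in YPD, replicate 1 was low for RPL9B (2.78, others 3.05 to 3.11) and high for the log2 ratio of the RPL7A to the RPL7B probe (5.65, others 5.44 to 5.46).

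The medium effect differed between SEF1-VP16 and WT by -0.87 for RPL7B, -0.98 for RPL22B, -1.17 for RPS9A, -0.73 for RPS27A and -0.87 for RPS28B, and between SEF1-VP16 and sef1 by -0.65 for RPL22B and -0.71 for RPS9A (limma, log2 units), with slide, strain and medium not told apart.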

How the results depend on the processing

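The signs of the 3 median medium differences of the members held in every alternative run, and without 1 array they ran from -0.90 to -0.71 in SEF1-VP16, -0.87 to -0.70 in sef1 and -0.77 to -0.64 in WT. In the order SEF1-VP16, sef1 and WT, the members called between media numbered 38, 32 and 19 at a fold minimum of 2, and 80 to 107, 86 to 112 and 79 to 99 without 1 array. Pair ratios called between media numbered 35, 26 and 29 with no fold minimum, 3, 3 and 4 at a minimum of 2, and 11 to 12, 9 to 11 and 10 to 13 without 1 array. Against the array median, all probes called higher and lower between media numbered 1162 and 1160 in SEF1-VP16, 958 and 1266 in sef1, and 1009 and 1213 in WT, in place of 1108 and 1226, 1093 and 1095, and 1189 and 1021.

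For SEF1-VP16 against WT in YPD, the members called numbered 27 with no fold minimum, 1 at a minimum of 2 and 3 to 5 without 1 array (3 without replicate 4 of WT in YPD). The pair ratios numbered 18, 1 and 3 to 5 (3 without replicate 4 of SEF1-VP16 or replicate 1 of WT), 2 with normexp background correction and 3 after quantile normalization. For SEF1-VP16 against sef1 in YPD, the members numbered 6 with no fold minimum, 0 at a minimum of 2, 0 against the array median and 0 to 1 without 1 array, and the pair ratios 5 and 0 under the first 2 of these and 1 to 2 without 1 array. For sef1 against WT in YPD, the members numbered 7 with no fold minimum, 1 (RPS28B) in a single fit of all arrays and 0 to 1 without 1 array, and the pair ratios 5 with no fold minimum and 0 to 1 without 1 array. In YPGly, sef1 against WT gave 2 pair ratios with no fold minimum, and SEF1-VP16 against sef1 gave 1 member and 4 pair ratios with no fold minimum; without 1 array all counts in YPGly were 0.

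A fit with slide as a term has as many terms as groups. It holds 1 difference per pair of strains for both media, made only of that of sef1 from WT in YPD and that of SEF1-VP16 from sef1 in YPGly, so it does not test the YPD differences of SEF1-VP16. It called 1 member (RPS28B, 0.63, the YPD value) for sef1 against WT, and 0 members and 0 pair ratios for SEF1-VP16 against WT and against sef1, where RPS9A stood at -0.12, its YPGly difference.

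The medium effect differed between SEF1-VP16 and WT for 1 member at a fold minimum of 2 and for 5 to 6 without 1 array. Between SEF1-VP16 and sef1 it differed for 6 members with no fold minimum, 0 at a minimum of 2, 1 (RPS9A, without RPL22B) each against the array median, with normexp and after quantile normalization, and 1 to 4 without 1 array (4 without replicate 4 of sef1 in YPGly). Replicate numbers were not taken to pair the samples, since in each comparison at least 1 same-numbered pair of arrays had a correlation of deviations of 0.1 or less. That rule cannot exclude pairing. For sef1 against WT in YPD the 4 same-numbered correlations were 0.0014, 0.16, 0.53 and 0.43, against a median of -0.13 for other pairs. With replicate number as a block, 5 members were called for SEF1-VP16 against WT in YPD, and no count moved by over 1.5 times. Normexp used the median spot signal and was chosen after seeing the data, like the slide term on pair ratios and the medium difference within 1 slide. Promoter motifs were not searched. Every member value was marked well above background, but RPL7B was dim, and its medium call in SEF1-VP16 was lost with normexp background correction.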
